A study of Homo sapiens with 3 samples.

Results

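A group of 10 genes of epithelial identity was followed in HEC1B, an established line of human endometrial cancer, after knockdown of PRMT6. They are the keratin genes KRT7, KRT8, KRT18 and KRT19, the adhesion genes CDH1 and EPCAM, and the tight junction genes CLDN4, CLDN7, OCLN and TJP1. They were chosen by gene name, and all 10 were found among the 26485 genes of the count table. RNA was counted at 48 h in 3 libraries. The siNC control is 1 library whose genotype is labelled WT, and the PRMT6 knockdown group is 2 libraries made with different siRNAs, siPRMT6-1 and siPRMT6-2. PRMT6 encodes an enzyme that methylates arginine, on histones among other targets. Each siRNA and the control has a single library, and nothing in the labels says that they came from separate cultures, so each p-value below measures nothing beyond the spread of these libraries, which may be technical.

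Simple epithelia build their intermediate filaments from pairs of a type II and a type I keratin. Keratin 8 (type II) and keratin 18 (type I) are the usual pair, and keratins 7 and 19 join them in many glandular tissues. Neighbouring cells are held together by E-cadherin, the product of CDH1, at adherens junctions, and the space between them is sealed by claudins and occludin at tight junctions, which TJP1 (ZO-1) links to the cytoskeleton. High levels of these genes mark epithelial cells, and their loss is a known feature of the epithelial to mesenchymal transition.

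The libraries held 362080 to 410916 counts over all genes. PRMT6 itself gave 25 counts with siNC, 4 with siPRMT6-1 and 7 with siPRMT6-2, the direction that the labels call for. The strand behind the counts is not settled: the labelled kit marks strand, the counting used strand setting 1, and VIM-AS1 had 12493 counts in siNC against 312 for VIM on the opposite strand. Counting on the wrong strand throughout would touch all 10 genes, and this was not tested. All counts below therefore describe the table, and near-zero counts do not show that a gene was silent. Of the marker genes of other cell types, VIM and COL1A1 held most of the mesenchymal or fibroblast counts, which summed to 843, 651 and 764 over 7 genes in siNC, siPRMT6-1 and siPRMT6-2, and COL1A2, COL3A1, DCN and LUM were at 0 in each library. The 4 endothelial markers summed to 19, 18 and 6 counts with CDH5 and KDR at 0, and the 5 leukocyte markers to 17, 19 and 57, nearly all from CD68, with PTPRC, CD3E and CD14 at 0.

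The strand question bears most on the keratin pair, because KRT8 and KRT18 lie head to head and overlap. KRT8 (hg38 chromosome 12, 52897187 to 52949866, minus strand) has an outlying 5′ exon of 411 bases that lies wholly within the KRT18 gene (52948871 to 52952901, plus strand). The gene models behind the counts make 135 of its bases, chr12:52949456-52949590, exon of KRT18 as well, and there they code for keratin 18 in GENCODE release 29. The first 30 bases of this stretch are shown as they read on each strand, from GENCODE transcript sequence on GRCh38, because the strand alone decides whether a read here is counted for KRT18 or for KRT8. No base is capitalised.
KRT18 strand: ctggacagagtgaggagcctggagaccgag
KRT8 strand: ctcggtctccaggctcctcactctgtccag
The shared bases make up 5.96% of the KRT8 exon bases and 8.79% of those of KRT18. These shares hold for the gene models behind the counts. In GENCODE release 29 the exons of KRT8 and KRT18 share 525 bases. The KRT8 exon as a whole, 18.1% of the exon bases of KRT8, lies inside the KRT18 gene. The table gives 1 value per gene, so the counts of this exon cannot be told apart from those of the other 9 exon blocks of KRT8.

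**Figure D1:**
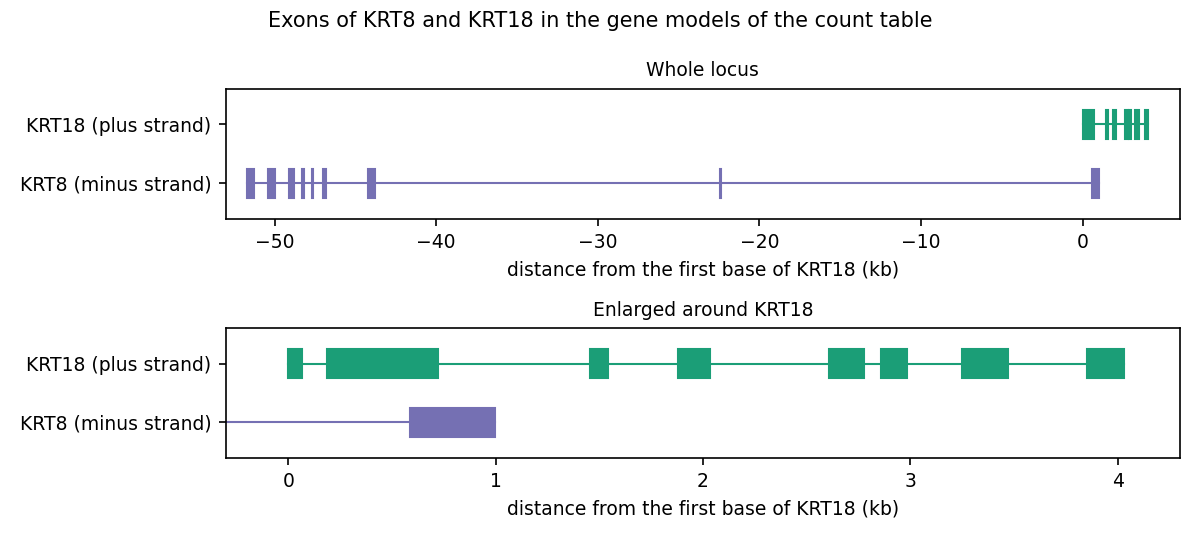
Exons (boxes) of KRT8 and KRT18 in the gene models of the count table, drawn against the distance in kb from the first base of KRT18, for the whole locus (top) and enlarged (bottom). A single KRT8 exon of 411 bases reaches into KRT18 and shares 135 bases with a KRT18 exon on the other strand.

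KRT8 and KRT18 carried nearly all counts of the 10 genes. The KRT8 count was 1329 with siNC, 681 with siPRMT6-1 and 770 with siPRMT6-2. KRT18 had 129, 85 and 95 counts in the same order. Both keratins were thus highest in siNC and lowest in siPRMT6-1. Together they made up 96.7% of the summed counts of the 10 genes in siNC, 95.3% in siPRMT6-1 and 96.1% in siPRMT6-2. TJP1 had 36, 26 and 20 counts and was also highest in siNC. In each of the other 7 genes no library reached 10 counts, and CDH1 and KRT19 had 0 counts in all 3 libraries.

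**Figure D2:**
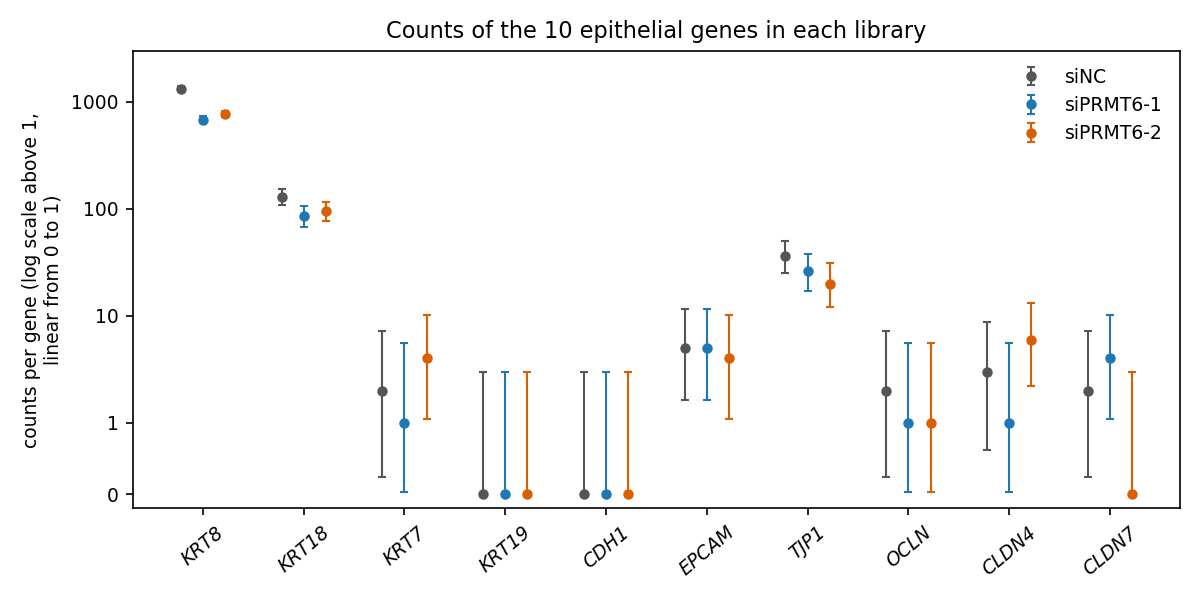
Counts of the 10 genes in each library, on an axis that is linear from 0 to 1 and logarithmic above. Bars are 95% exact Poisson intervals that cover counting error only. For a count of 0 the bar stops at the floor of 3 counts, short of the 3.69 that the exact interval reaches. KRT8, KRT18 and TJP1 stand above 10 counts in every library, and the other 7 genes reach 6 counts at most.

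Per exonic length KRT8 was highest and KRT18 next in every library, and the order of the others differed between libraries. Levels are given as CPM (counts per 1000000 counts of the library, scaled with TMM, which corrects for differences in library composition) per kb of exon. KRT8 stood at 1521 CPM per kb in siNC, 811 in siPRMT6-1 and 1030 in siPRMT6-2, and KRT18 at 218, 149 and 188. All 3 KRT8 levels were above all 3 KRT18 levels. TJP1 had levels of 10.9, 8.20 and 7.08 CPM per kb over the 8557 exon bases on chromosome 15 (the table's own length of 17115 also counts an alternate copy of the locus). EPCAM, which encodes an epithelial adhesion molecule, had 7.54, 7.85 and 7.05 CPM per kb from 5, 5 and 4 counts. TJP1 was above EPCAM in each library, but so few EPCAM counts do not fix their order. The difference was not tested. The remaining genes with counts, CLDN4, CLDN7, KRT7 and OCLN, ranged from 0 to 9.93 CPM per kb, and single counts decide their order. A count of 0 allows up to 3 counts, which for CDH1 with its 4815 exon bases is a level of 1.61 CPM per kb with siNC, 1.68 with siPRMT6-1 and 1.89 with siPRMT6-2, for counting error only.

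KRT8 had lower counts with both siRNAs, by more than counting error between the libraries. Relative to siNC its CPM was 0.533 for siPRMT6-1 (95% exact binomial interval 0.486 to 0.585) and 0.677 for siPRMT6-2 (0.619 to 0.741). The 2 ratios share the siNC library. Between the knockdown libraries, siPRMT6-2 stood at 1.27 times siPRMT6-1 (1.14 to 1.41), where 11.3% of all tested genes had an interval above 1, and 31.6% of those with at least 1000 counts. Such intervals compare libraries and not conditions, and they narrow as counts grow. An interval wholly below 1 was found for 7.14% of all 6803 tested genes with siPRMT6-1 and 8.82% with siPRMT6-2, and for 2.16% with both. Among the 133 genes with at least 1000 counts over the 3 libraries, to which KRT8 belongs, these shares were 45.9% and 55.6%, and 29.3% lay below 1 with both siRNAs. An interval below 1 was thus common among genes as deep as KRT8. By size, its log2 fold change over both siRNAs, −0.72, was exceeded downwards by 2 of those 133 genes, whose median was −0.15. With siPRMT6-1 alone 5 of the 133 were lower than KRT8 and with siPRMT6-2 alone 14 were.

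KRT18, the filament partner, was also below siNC with both siRNAs. The strand of the counts is not settled, so the values of both keratins are counts under each gene name. Of the KRT18 exon bases, 39.1% lie within the KRT8 gene. How far reads of one keratin enter the count of the other was not tested. Relative to siNC its CPM was 0.686 for siPRMT6-1 (exact binomial interval 0.515 to 0.909) and 0.861 for siPRMT6-2 (0.653 to 1.13), an interval that takes in 1. With siPRMT6-2 over siPRMT6-1 the ratio was 1.26 (0.927 to 1.70). Intervals below 1 were found with siPRMT6-1 for 15.5% of the 1902 genes with at least 100 counts, with siPRMT6-2 for 20.1% and with both for 5.78%. The balance of the pair within a library does not depend on scaling between libraries. With siNC it was 10.3 KRT8 counts per KRT18 count (8.59 to 12.4). The siPRMT6-1 library had 8.01 (6.39 to 10.2), close to the 8.11 of siPRMT6-2 (6.54 to 10.1). Per exon base KRT8 exceeded KRT18 by 6.98 times in siNC, 5.43 times in siPRMT6-1 and 5.49 times in siPRMT6-2. The balance in siPRMT6-1 was 0.778 times that in siNC (conditional exact interval 0.577 to 1.05) and in siPRMT6-2 0.787 times (0.590 to 1.05), so a shift between the keratins was not detectable at this depth. A processed KRT8 pseudogene in the table, KRT8P41, had 2, 3 and 1 counts, and reads that KRT8 or KRT18 share with such copies make their counts uncertain.

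The other keratin members were near or at 0. For KRT7 (chromosome 12, 52233170 to 52248925, plus strand), a type II keratin of glandular epithelia, the counts were 2, 1 and 4, and its interval with siPRMT6-2 over siNC ran from 0.335 to 25.8. KRT19 (chromosome 17, 41523617 to 41528389, minus strand), the smallest type I keratin, had 0 counts in each library, which allows 5.29 to 6.18 CPM per kb. GENCODE places KRT7-AS on the strand opposite KRT7 with 282 shared exon bases, and this gene has no row in the count table. It also places AC099314.1 opposite CDH1 with 347 shared exon bases, likewise without a row.

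Among the tight junction genes only TJP1 had enough counts to test. TJP1 (chromosome 15, 29699367 to 29968799, minus strand) encodes the scaffold that ties claudins and occludin to actin, and its CPM relative to siNC was 0.752 for siPRMT6-1 (exact binomial interval 0.436 to 1.28) and 0.649 for siPRMT6-2 (0.356 to 1.15). Both intervals take in 1. CLDN4 (chromosome 7, 73830863 to 73832693, plus strand), a claudin of glandular epithelia, had 3 counts with siNC, 1 with siPRMT6-1 and 6 with siPRMT6-2, with ratios to siNC of 0.347 (0.00661 to 4.32) and 2.34 (0.499 to 14.4). CLDN7 (chromosome 17, 7259903 to 7263193, minus strand), another epithelial claudin, had 2, 4 and 0 counts. The CLDN4 and CLDN7 counts were ordered oppositely across the knockdown libraries, but no interval between any libraries left out 1. CLDN7 shares 38 exon bases with ELP5 on the opposite strand, which had 26, 31 and 19 counts. OCLN (chromosome 5, 69492292 to 69558104, plus strand), which encodes occludin, had 2, 1 and 1 counts over 6576 exon bases. Summed over the 4 tight junction genes there were 43, 32 and 27 counts. Relative to siNC this was 0.774 for siPRMT6-1 (0.474 to 1.25) and 0.734 for siPRMT6-2 (0.436 to 1.22), and 36, 26 and 20 of these were from TJP1.

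Of the adhesion genes, EPCAM (chromosome 2, 47369148 to 47387028, plus strand) had ratios to siNC of 1.04 for siPRMT6-1 (exact binomial interval 0.240 to 4.52) and 0.935 for siPRMT6-2 (0.186 to 4.34), so a difference of up to 4 times either way would not be detectable at this depth. CDH1 (chromosome 16, 68737292 to 68835541, plus strand) gave no ratio. The count of 0 for CDH1 stood beside counts for the N-cadherin gene CDH2, which is the cadherin of mesenchymal and neural cells, of 43 with siNC, 36 with siPRMT6-1 and 40 with siPRMT6-2. Per length CDH2 was at 25.0, 21.8 and 27.2 CPM per kb. The CDH1 floor of 1.61 to 1.89 CPM per kb, for counting error only, lies below each of these levels. With the strand of the counts not settled, this does not show which cadherin the cells express.

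**Figure D3:**
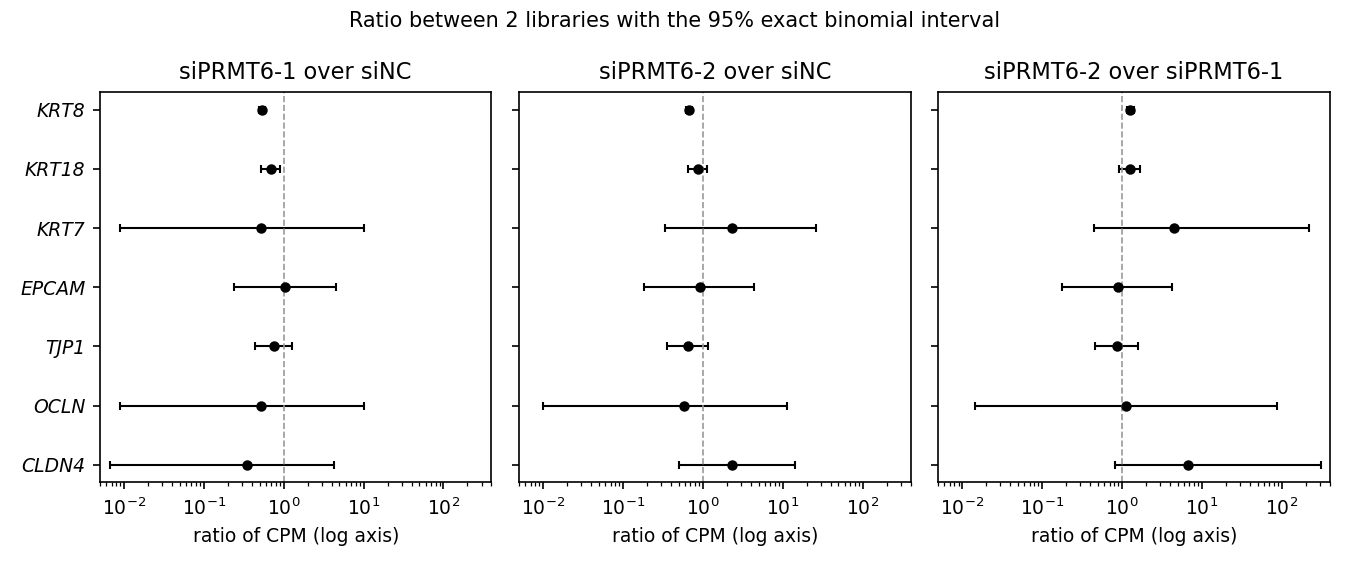
Ratio of CPM between pairs of libraries (points, log axis) with the 95% exact binomial interval (bars) for the 7 genes that had counts in all 3 libraries, and a dashed line at 1. Against siNC the KRT8 interval lies below 1 with both siRNAs and the KRT18 interval with siPRMT6-1, and the KRT18 interval between the siRNAs takes in 1.

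The comparison of both knockdown libraries with siNC asked which of these genes respond to loss of PRMT6. The quasi-likelihood test of edgeR, fitted to all 6803 genes that passed its filter on low counts, included 3 of the 10 genes and called none. It called 0% of all genes at an adjusted p under 0.05, and 2.73% had an unadjusted p under 0.05, against which the 3 are to be read. KRT8 had a log2 fold change of −0.72 (SE 0.376, unadjusted p = 0.0751, adjusted p = 1.00 by edgeR). For KRT18 the log2 fold change was −0.37 (SE 0.420) and for TJP1 −0.51 (SE 0.505), both with an adjusted p of 1.00 by edgeR. All 3 had lower CPM than siNC in both knockdown libraries, which was the case for 30.1% of the tested genes. None of the 3 had an unadjusted p under 0.05, nor by DESeq2. The fit has 1 residual degree of freedom, the gap between the siRNAs, and assumes that the lone control varies like the knockdown libraries.

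**Figure D4:**
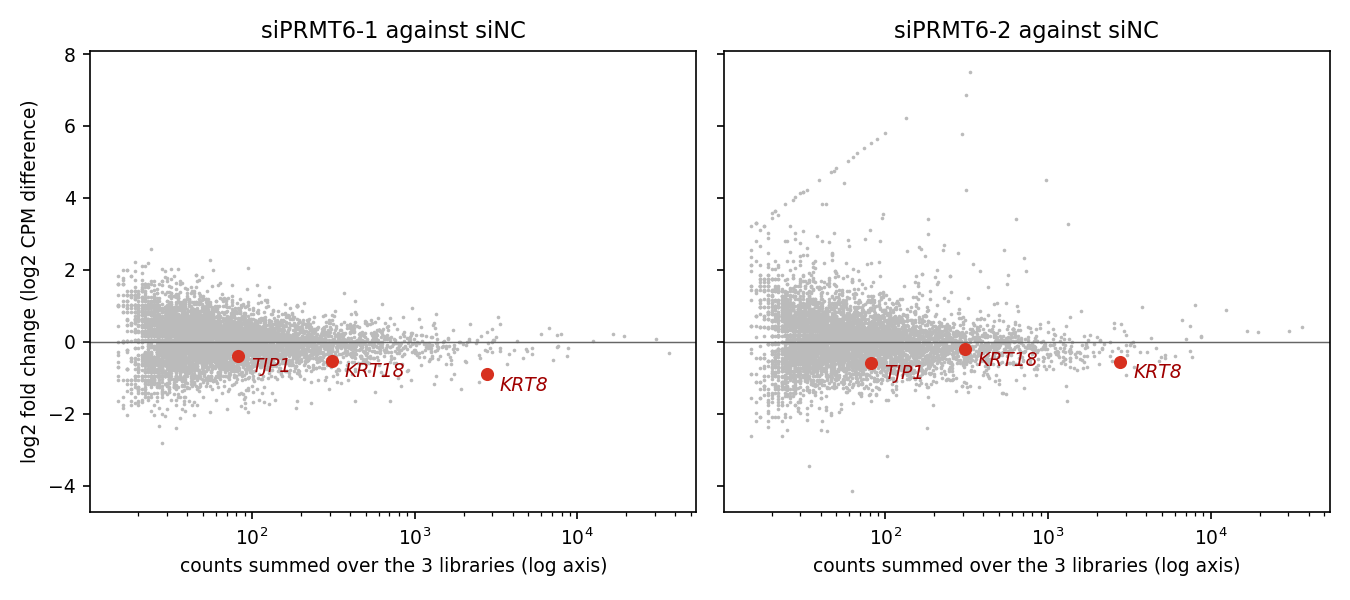
Log2 fold change of each siRNA against siNC (difference of log2 CPM) for the 6803 tested genes (grey) against the counts summed over the 3 libraries (log axis), with KRT8, KRT18 and TJP1 in red. All 3 lie below 0 in both panels, and KRT8 lies near the lower edge of the genes with similar counts for siPRMT6-1.

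Summed over the 10 genes there were 1508 counts with siNC, 804 with siPRMT6-1 and 900 with siPRMT6-2. Relative to siNC the sum was 0.555 for siPRMT6-1 (exact binomial interval 0.509 to 0.605) and 0.698 for siPRMT6-2 (0.642 to 0.758). KRT8 made up 88.1%, 84.7% and 85.6% of these counts. The sum thus mostly repeats KRT8. Without KRT8 the ratios were 0.715 (0.564 to 0.905) and 0.849 (0.672 to 1.07). The interval for siPRMT6-2 takes in both 1 and the full-sum ratio of 0.698, with far fewer counts. It does not decide whether the other genes share the direction of KRT8. The 8 genes other than KRT8 and KRT18 had 50, 38 and 35 counts, with ratios of 0.791 (0.505 to 1.23) and 0.818 (0.516 to 1.29).

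Further genes of epithelial filaments, junctions and their regulators differed in direction from list to list, and edgeR called none of them. Other keratins were sparse: 8 of 14 had 0 counts in every library and 2 were tested. Both of these, KRT80 and KRT10, were lower with both siRNAs, with a median log2 fold change of −0.44 against 0.04 over all tested genes, and no interval of theirs left out 1. In the order siNC, siPRMT6-1, siPRMT6-2, KRT80 had 18, 13 and 11 counts, KRT10 (opposite TMEM99) had 17, 16 and 7, KRT86 had 5, 2 and 0, and KRT23 had 1, 1 and 0. Of 15 other claudins 4 were tested, 2 lower and 2 higher over both siRNAs, with a median log2 fold change of 0.43. CLDN1 had 29, 24 and 25 counts, CLDN11 had 7, 13 and 12, and CLDN16 had 14, 29 and 23, a ratio to siNC of 2.16 for siPRMT6-1 (exact binomial interval 1.10 to 4.41) and 1.92 for siPRMT6-2 (0.947 to 4.04). An interval wholly above 1 with siPRMT6-1 was found for 5.89% of all tested genes. CLDN2, a pore-forming claudin that overlaps RIPPLY1 on the opposite strand, had 36, 26 and 0 counts. Its ratio to siNC was 0.752 for siPRMT6-1 (0.436 to 1.28), and for siPRMT6-2 the upper end of its interval was 0.126. By count CLDN2 was thus lower with both siRNAs, CLDN16 and CLDN11 were higher with both, and CLDN1 had fold changes on the log2 scale of −0.20 and 0.01. Both CLDN11 intervals took in 1 (0.717 to 5.72 for siPRMT6-1 and 0.727 to 6.01 for siPRMT6-2). So did those of CLDN2 for siPRMT6-1 and CLDN16 for siPRMT6-2.

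Other tight junction, adherens junction and desmosome genes had medians near that of all genes. Of 14 other tight junction genes 8 were tested, 3 lower and 5 higher, with a median log2 fold change of 0.05. MPP5, a polarity scaffold, had 52, 57 and 40 counts, JAM3 22, 26 and 17, and PARD6B 21, 22 and 18. None of these 3 had an interval that left out 1. Chosen after their values were seen, F11R (JAM-A) with 16, 5 and 13 counts had a ratio to siNC of 0.325 for siPRMT6-1 (0.0932 to 0.929), and CGNL1 (paracingulin) with 2, 10 and 4 counts had 5.20 (1.11 to 48.8). Of 12 adherens junction genes 10 were tested, 5 lower and 5 higher, with a median of 0.00. The catenin gene CTNNA1, which overlaps LRRTM2 on the opposite strand, had 58, 36 and 51 counts and a ratio to siNC of 0.646 for siPRMT6-1 (0.414 to 0.996), VCL (vinculin) had 34, 50 and 35, and the nectin gene PVRL2 had 27, 33 and 46, as against 27, 34 and 45 for the cadherin gene CDH6. For siPRMT6-2 the ratio to siNC was 1.99 for PVRL2 (1.21 to 3.33) and 1.95 for CDH6 (1.18 to 3.27), where 9.73% of all tested genes had an interval above 1. Of 11 desmosome genes 5 were tested, 3 lower and 2 higher, with a median of −0.10. DSP, which encodes desmoplakin, the anchor of keratin filaments at desmosomes, had 27, 29 and 47 counts, and its ratio to siNC was 2.03 for siPRMT6-2 (1.24 to 3.40). EVPL had 34, 25 and 19 counts, PPL 20, 21 and 13, and PKP4 23, 13 and 10. The desmoplakin count was thus higher with siPRMT6-2, where the KRT8 count was lower than in siNC.

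Epithelial surface genes and regulators were also mixed. Of 9 surface genes 3 were tested, 2 lower and 1 higher, with a median of −0.13. SPINT2, a protease inhibitor gene, had 35, 30 and 28 counts, CD24 had 18, 9 and 7, CDCP1 had 2, 4 and 13 (a ratio to siNC of 7.60 for siPRMT6-2, 1.72 to 69.4), and MUC1 had 4, 0 and 4. Of 13 epithelial transcription and splicing factors 4 were tested, 0 lower and 4 higher over both siRNAs. Their median log2 fold change was 0.41. Per siRNA the median was −0.43 with siPRMT6-1 and 0.69 with siPRMT6-2, where the medians of all tested genes were 0.01 and 0.01. KLF4, a transcription factor of epithelial differentiation, had 13, 8 and 56 counts, and its ratio to siNC was 0.640 for siPRMT6-1 (0.230 to 1.67) and 5.04 for siPRMT6-2 (2.72 to 10.0). PAX8, a Müllerian lineage factor that overlaps PAX8-AS1, had 158, 117 and 227 counts, with ratios to siNC on opposite sides of 1, 0.771 (0.602 to 0.985) for siPRMT6-1 and 1.68 (1.36 to 2.07) for siPRMT6-2. ESRP2, a splicing factor that overlaps NFATC3, had 38, 55 and 45, and TFAP2A, which overlaps TFAP2A-AS1, had 30, 20 and 41. GRHL2, OVOL2, ESRP1 and EHF had 0 counts in every library. The repressors of CDH1 that drive the epithelial to mesenchymal transition summed to 25 counts in each library. ZEB2, which overlaps ZEB2-AS1, had 12, 13 and 12 counts, TWIST1 6, 6 and 3, SNAI1 4, 2 and 3, TWIST2 1, 2 and 6, ZEB1 2, 2 and 1, and SNAI2 0 in each. No change of these repressors was detectable at this depth.

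**Figure D5:**
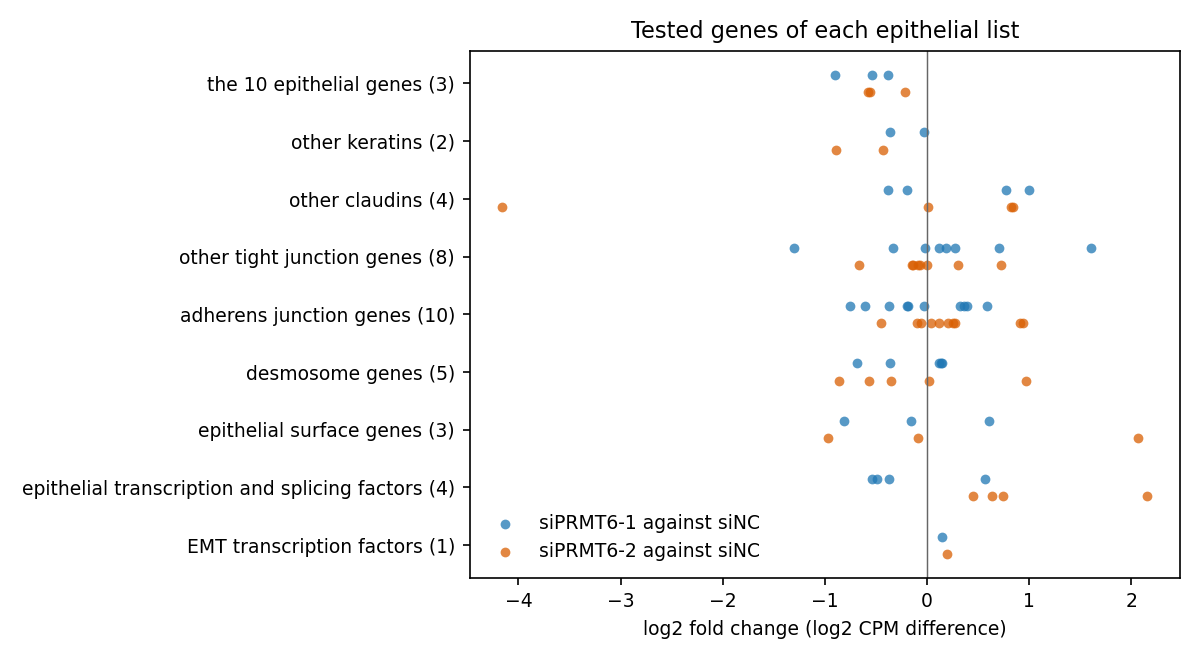
Log2 fold change of each siRNA against siNC (difference of log2 CPM) for every tested gene of each list, with the number of tested genes in parentheses. The 3 tested genes of the 10 and the 2 tested other keratins lie below 0 with both siRNAs, the 1 tested EMT factor lies above 0 with both, and the point near −4 is CLDN2 with siPRMT6-2.

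A promoter window from RefSeq (GRCh38.p14) was held for KRT8, CLDN4, CLDN7, OCLN and TJP1, and the 250 bases upstream of each start were searched on both strands for CACCTG, the E-box bound by SNAI and ZEB repressors (CAGGTG on the other strand), AACCGGTT, a grainyhead-like site, and GGGCGG, the GC box of Sp1 (CCGCCC on the other strand). KRT8 is shown since it had most counts and intervals below 1 with both siRNAs. Its window ends at a start inside the gene, outside the KRT18 overlap, at chr12:52926470-52926719 on the minus strand, and capitals would mark a match.
KRT8: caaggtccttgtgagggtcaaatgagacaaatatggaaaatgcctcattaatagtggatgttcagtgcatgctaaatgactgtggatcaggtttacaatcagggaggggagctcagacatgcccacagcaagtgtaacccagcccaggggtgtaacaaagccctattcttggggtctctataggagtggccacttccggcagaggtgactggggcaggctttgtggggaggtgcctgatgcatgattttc
None of the 3 motifs is in this window. Other starts of KRT8, such as that of its outlying 5′ exon or any start further downstream in the gene, had no window and were not searched. This window therefore does not show whether KRT8 promoters in general lack the motifs. The E-box letters were in 1 of the CLDN7 windows, 4 times, in both OCLN windows and in 1 of the TJP1 windows, and in 17.5% of all 35116 promoter windows. GC box letters were found in windows of CLDN4, CLDN7, OCLN and TJP1, and in 42.6% of all windows. AACCGGTT was in no window of these genes and in 0.117% of all windows.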

How the data were processed

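The authors' deposited values are whole-number counts per gene name with no normalization. The submitters' processing notes name STAR 2.7.8a, hg38 and featureCounts 2.0.10, whereas the file header has featureCounts 2.0.1. Counting grouped exons by gene name in UCSC gene models, with strand setting 1, with read pairs as the unit and with a read over several genes added to each, per the file headers. Names of the aligned files speak of UMI deduplication, for which no source used here gives the method. RNA was isolated with a column kit and made into stranded total RNA libraries, per the labels' protocols. Columns were matched to libraries through the descriptions in the labels, where siPRMT6-1 appears as si2 and siPRMT6-2 as si3.

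edgeR 4.0.16 in R 4.3.3 fitted its quasi-likelihood model to the whole table, with 1 residual and 12.8 prior degrees of freedom. Its settings were TMM, a minimum count of 10 and total of 15, Benjamini-Hochberg adjustment, two-sided, threshold 0.05. A run on simulated data required only that large known changes keep their direction. The size of change that the test can call is not given here. Log2 fold changes per siRNA are differences of log2 CPM with a prior count of 2. Ratios of libraries have 95% exact binomial intervals, and the floor for a count of 0 is 3 counts. These cover counting error only. Overlaps used the table's gene models and GENCODE release 29. Alternatives were DESeq2 1.42.0, other scalings, the older edgeR fit, no filter, no opposite-strand genes and leaving out each knockdown library. Besides the 10 genes, the text names up to 4 genes a list with the most counts (5 where tied), all repressors of the EMT list, genes sharing exon bases with one of the 10, and PRMT6, VIM and VIM-AS1 as checks. A gene that this rule names is not reported here. Factors named for their count of 0 were chosen after their values were seen. The 10 genes and the lists were chosen with earlier results of these data known.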

Additional observations from a re-analysis of the deposited data

How the results depend on the processing

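Over the alternatives, 76 of the recomputed values kept their direction and their side of the threshold and 1 did not. Without KRT8, the gene with most counts, the summed counts with siPRMT6-2 were 0.849 times siNC (exact binomial interval 0.672 to 1.07). This interval no longer lay wholly below 1, with fewer counts in the sum. Many of the 76 could hardly have differed. Another scaling shifts every ratio between the same libraries by a common factor. Leaving out 1 knockdown library returns the fold change of the other siRNA. None of the 10 genes was called by DESeq2, RLE scaling, the older edgeR fit, the fit with no filter (8 genes tested) or the fit that drops genes with exon overlap on the other strand, which leaves TJP1 alone of the 10. Leaving out each knockdown library, which allows no test, gave log2 fold changes of −0.91 to −0.56 for KRT8, −0.53 to −0.21 for KRT18 and −0.58 to −0.39 for TJP1. Each of these 3 fold changes stayed below 0 under every scaling. No paired analysis was possible because siNC has 1 library, so the groups share fewer than 2 replicate numbers. The depth of 362080 to 410916 counts leaves 7 of the 10 genes with too few counts to test.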
